A study of Mus musculus with 23 samples.

Results

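A set of 9 genes for hyaluronan-binding proteoglycans, hyaluronan synthesis and binding, and the start or editing of sugar chains was followed in mouse mesenteric arteries. They were the 9 rows, of 39179 genes measured, whose symbol was Vcan, Acan, Has1, Has2, Cd44, Sulf1, Sulf2, Gxylt2 or Xylt1, and each symbol had 1 row. Versican (Vcan) and aggrecan (Acan) are large core proteins that carry chondroitin sulfate chains. They bind hyaluronan, a sugar polymer made at the cell membrane by the synthases Has1 and Has2 and held at the cell surface by its receptor Cd44. The wall of an artery stores water in this gel, and versican is its usual large proteoglycan, whereas aggrecan is best known from cartilage. Xylt1 adds the xylose on which chondroitin and heparan sulfate chains are built. Sulf1 and Sulf2 are secreted sulfatases that remove 6-O-sulfate groups from finished heparan sulfate and so change which growth factors it binds. Gxylt2 is a xylosyltransferase of another kind, which adds xylose to O-linked glucose on the EGF repeats of Notch-type proteins, so it is no heparan sulfate enzyme although it is listed with them here.

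The arteries came from wild-type male C57BL/6J mice, 10 to 12 weeks old at the start. Angiotensin II (Ang II), a peptide hormone that raises blood pressure, was infused under the skin from osmotic minipumps for 7 or 14 days at a dose of 1000 ng/kg/min, and the controls had sham surgery. Total RNA was sequenced from 6 sham and 6 infused arteries at 7 days, and from 6 sham and 5 infused arteries at 14 days, each library from its own animal number. No genetic change or other agent is given for any group, and fat and veins were dissected away. Adipocyte markers still summed to between 296 and 1470 on the authors' scale.

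Library totals ran from 4471038 to 21509283 recovered reads. The 4 groups overlapped in depth but differed in mean total. It was 8898834 in 7-day sham and 13848268 in 7-day infused arteries. At 14 days it was 14214829 in sham and 18587447 in infused arteries, with 15507654 the lowest total of the infused group. Smooth muscle markers summed to between 4755 and 7979 and endothelial markers to between 1004 and 1415 on the authors' scale, so the labelled tissue was present in every library. Pancreatic acinar genes took 5.49% to 15.7% of reads and a single transcript, AY036118, took 0.0431% to 36.2%. The share of AY036118 was uneven between groups. It was 0.113% to 36.2% in 7-day sham and 0.0788% to 13.2% in 7-day infused arteries. At 14 days it was 0.799% to 9.3% in sham and 0.0431% to 0.934% in infused arteries. At 14 days all 10 acinar markers had negative fold changes, and limma called 9 of them lower in the infused group. Of all 14896 genes tested, 300 were called lower. Scaling without these transcripts moved the median log2 fold change of all genes at 14 days from 0.03 to 0.15. The libraries were arteries with all their cells, so more cells of a type and more RNA per cell cannot be told apart. The first 2 digits of the animal numbers divided the mice into series 26, 27, 28 and 30. Series 30 held infused 14-day animals only, so series 30 and infusion cannot be told apart. The infused animals were of series 27 and 28 at 7 days and of series 26 and 30 at 14 days. Between the infused groups, time and series therefore cannot be told apart. Values within series are given beside the results.

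Per kilobase of exon, the 9 genes fell into an upper and a lower set in the 12 sham libraries. The value per kilobase was 14.95 ± 2.44 for Sulf2, 10.1 ± 0.764 for Sulf1, 7.91 ± 3.11 for Cd44 and 5.83 ± 0.784 for Vcan (SD, n = 12 for each). The lower set held Has2 at 1.02 ± 0.295, Gxylt2 at 0.747 ± 0.175, Xylt1 at 0.422 ± 0.0940, Has1 at 0.312 ± 0.206 and Acan at 0.0412 ± 0.0426. Only the step from Vcan to Has2 separated neighbours whose ranges did not overlap, and the other neighbours overlapped. All other values below are levels per gene on the authors' scale and are compared between libraries, not between genes. Reads of Has2 may include those of Has2os on the opposite strand, which shares 182 exon bases and had a mean value of 1.11. Sulf2 shares 154 exon bases with Ncoa3 on the opposite strand, which had a mean of 96.7.

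The stretch before the start site is shown for 3 genes that were higher with Ang II: Vcan, Acan and Gxylt2. Each is the 250 bases upstream of the start in RefSeq (GRCm38.p6), read 5′ to 3′ on the strand of the gene. RefSeq windows were found for 6 of the 9 genes, Sulf1, Has2 and Xylt1 being unmatched. Capitals mark matches to the 4 motifs searched on both strands: GGAATG (TEAD), GTCTG (SMAD), TGANTCA (AP1) and GGGCGG (GC box).
Vcan, chr13:89742513-89742762, minus strand: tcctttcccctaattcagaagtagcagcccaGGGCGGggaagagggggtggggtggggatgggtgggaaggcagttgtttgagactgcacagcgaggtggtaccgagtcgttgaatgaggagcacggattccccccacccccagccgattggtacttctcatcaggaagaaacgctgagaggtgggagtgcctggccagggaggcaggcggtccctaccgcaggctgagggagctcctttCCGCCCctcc
Acan, chr7:79052976-79053225, plus strand: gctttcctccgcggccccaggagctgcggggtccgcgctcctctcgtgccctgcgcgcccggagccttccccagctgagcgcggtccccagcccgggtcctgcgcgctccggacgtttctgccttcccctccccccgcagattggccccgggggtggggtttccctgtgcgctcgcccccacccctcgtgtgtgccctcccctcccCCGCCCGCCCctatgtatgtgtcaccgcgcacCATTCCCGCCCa
Gxylt2, chr6:100704484-100704733, plus strand: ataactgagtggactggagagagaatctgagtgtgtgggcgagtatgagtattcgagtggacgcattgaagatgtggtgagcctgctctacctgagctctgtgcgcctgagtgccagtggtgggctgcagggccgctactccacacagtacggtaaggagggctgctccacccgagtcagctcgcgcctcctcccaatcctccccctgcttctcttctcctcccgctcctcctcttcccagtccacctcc
The Vcan window held 2 GC boxes. The Acan window held 3 GC boxes, a pair of them overlapping and the other overlapping the TEAD match beside the start. The Gxylt2 window held none of the 4 motifs. Of 32851 RefSeq windows of the same length, 32.7% held a GC box, 12.6% a TEAD match, 42.2% a SMAD match and 6.75% an AP1 match. These matches are letters in a window and were not measured as binding.

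**Figure D1:**
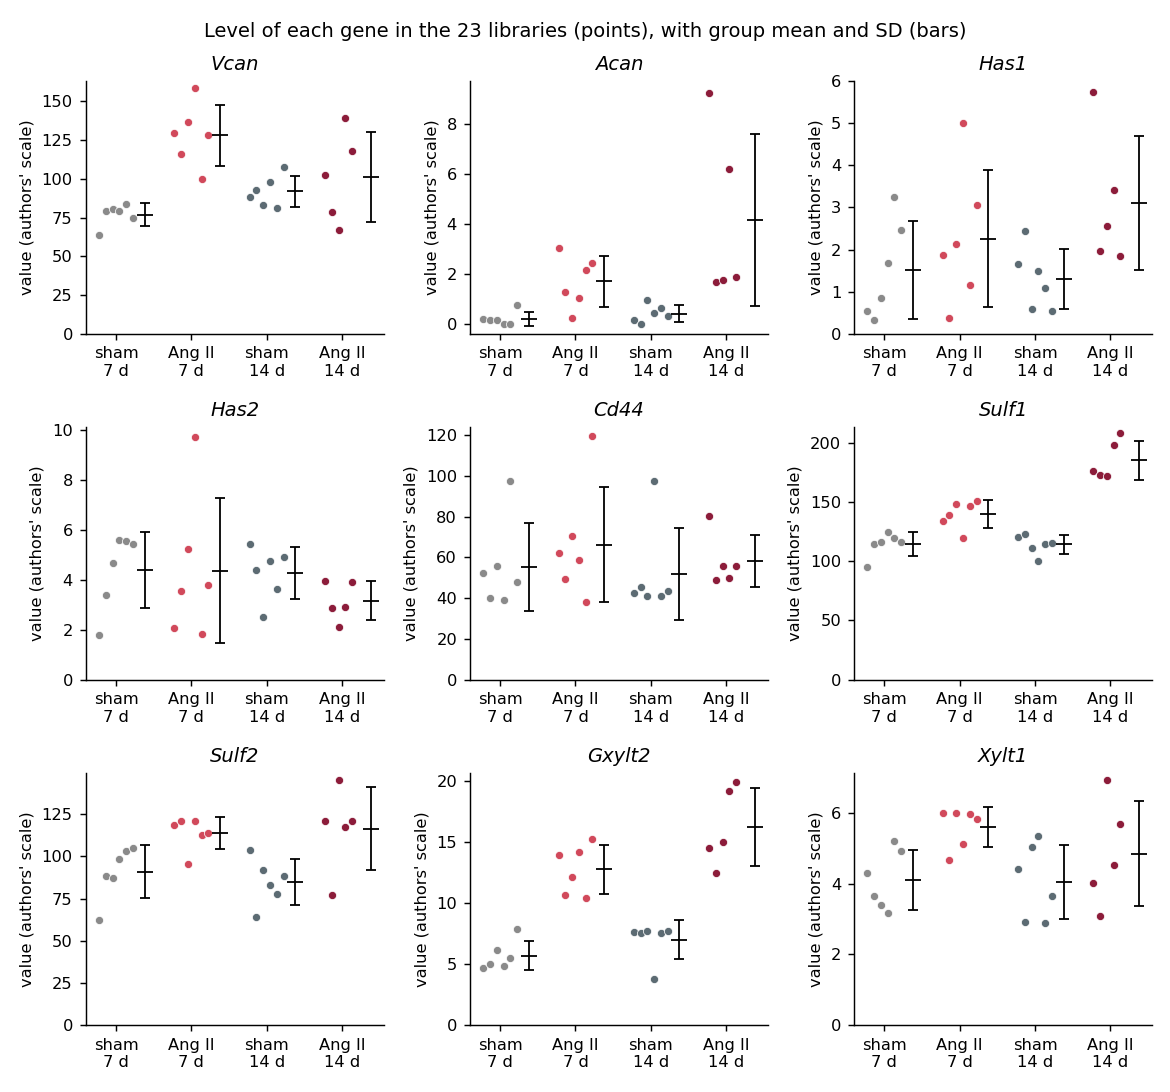
Value of each gene on the authors' scale (vertical axes, linear) in each of the 23 libraries (points), by group, with the group mean and SD beside the points (n = 6, 6, 6 and 5). Vcan stood apart from sham at 7 days, Sulf1 and Acan at 14 days and Gxylt2 at both times, while Cd44 had 1 high library in several groups.

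The first question was which of the 9 genes differed between infused and sham arteries after 7 days. Vcan and Gxylt2 rose, and the other 7 did not pass the test. Acan and Sulf1 were the nearest to it. In all, 8 of 9 fold changes were positive, with a median log2 fold change of 0.42 beside 0.00 over the 14896 genes tested. The limma test called 2 of 9 higher, against a background of 0.752% of all genes called higher. For the same 2, the lowest of 6 infused libraries lay above the highest of sham, as for 1.08% of all genes. Macrophage and monocyte markers had fold changes of like size, with a median log2 of 0.42 at 7 days (11 of 11 positive) and 0.41 at 14 days (10 of 11). Of these 11, limma called 0 at 7 days (4 at an unadjusted p under 0.05, 0 by edgeR, 1 by DESeq2) and 1, Csf1r, at 14 days. Their part in the levels of the 9 genes was not tested.

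The second question was the same after 14 days. Sulf1, Gxylt2 and Acan rose, and Vcan no longer stood apart from its sham group. Again 8 of 9 fold changes were positive, with a median log2 fold change of 0.44 beside 0.03 over all genes. Here 3 of 9 were called higher, against 4.04% of all genes, and the same 3 did not overlap with sham, as did 2.36% of all genes in that direction. Acan, 1 of the 3, entered the test through infused libraries alone and lost its call with the animal-number series as a block, which left 2 of 9. Gxylt2 was the only 1 of the 9 called at both times.

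**Figure D2:**
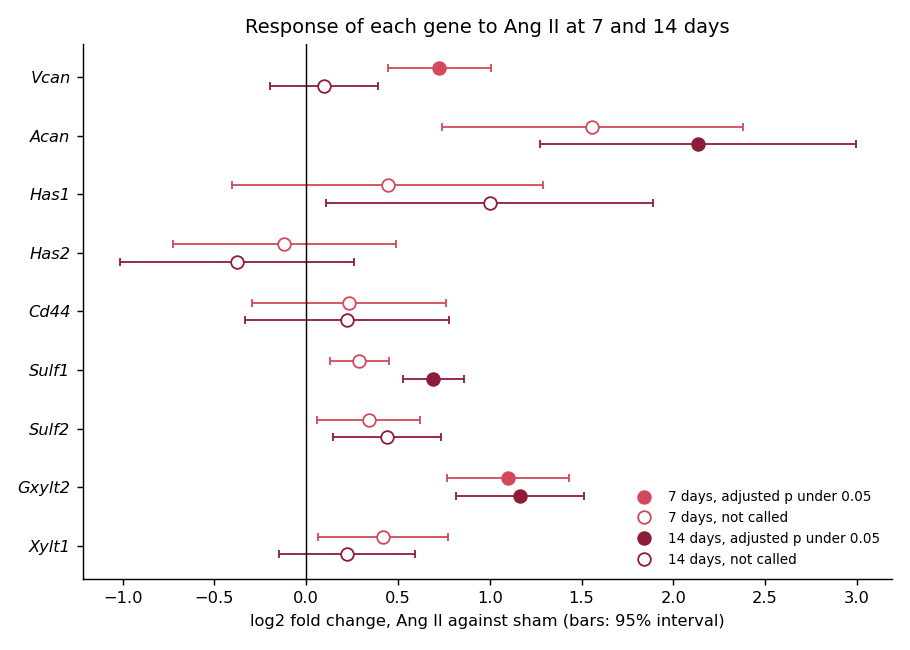
Log2 fold change of each gene, Ang II against sham, on log2(value + 0.5), with its 95% interval from limma (bars) at 7 days (lighter) and 14 days (darker). Filled points passed an adjusted p of 0.05; the interval of Vcan lay above 0 at 7 days and included 0 at 14 days, and that of Sulf1 moved upward.

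Versican was the more abundant of the 2 core proteins per kilobase, and its transcript rose at 7 days. Vcan (ENSMUSG00000021614) is a protein-coding gene on the minus strand at chr13:89655312-89742509 (GRCm38, as mm10). Sham arteries at 7 days held Vcan between 63.5 and 84.0, with a median of 79.1, and infused arteries between 99.7 and 158, with a median of 129. The lowest infused library lay above the highest sham library. Means were 76.9 ± 7.24 in sham and 128 ± 19.7 with Ang II (SD, n = 6 each), and Vcan rose by 0.72 ± 0.14 on the log2 scale (SE; limma, adjusted p = 0.0065). The rise was 0.75 within series 27 and 0.67 within series 28. Leaving out each library in turn gave 0.66 to 0.79, and Vcan was called each time.

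At 14 days the sham libraries held Vcan between 81.4 and 107, with a median of 90.4. The 5 infused libraries held 103, 78.5, 67.3, 139 and 118 in replicates 1 to 5. Replicates 2 and 3 lay below every sham library and replicates 4 and 5 above every one, so the groups overlapped from both sides. The means were 101 ± 29.1 (SD, n = 5) and 91.8 ± 9.80 (n = 6), which gave 0.10 ± 0.14 on the log2 scale (SE; limma, adjusted p = 0.71). The 2 high libraries were those of series 30. Within series 26 the log2 difference was -0.15, with 67.3 to 103 in 3 infused and 83.2 to 98.1 in 4 sham libraries, and without series 30 the fitted value was -0.16.

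The Vcan levels at 7 and 14 days were then compared. Its sham level was 91.8 at 14 days and 76.9 at 7 days, a log2 difference of 0.25 ± 0.14 (SE; limma, adjusted p = 0.67). Its infused level was 101 at 14 days and 128 at 7 days, in groups that shared no series of animal numbers. The test of the difference between the 2 responses gave -0.63 ± 0.20 (SE; limma, unadjusted p = 0.0039, adjusted p = 0.47), so a smaller Vcan response at 14 days did not pass over all genes.

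Fibroblast markers were read beside Vcan. Their 8 genes summed to between 3330 and 3975 in 7-day sham and between 3747 and 5902 in 7-day infused arteries, and 3 of 8 were called higher at each time, Col14a1, Pi16 and Lum, beside 0.752% and 4.04% of all genes. The other 5 were not called, and Dcn had an adjusted p of 0.76 at 7 days. At 14 days the sums were 3874 to 4909 in sham and 3371 to 6118 in infused arteries. The 3 called markers rose at 14 days by 0.56, 0.77 and 0.74 on the log2 scale. The other 5 ran from -0.14 (Dpt) to 0.09 (Clec3b), and Vcan had 0.10. The part of fibroblasts in the Vcan result was not tested. By mean absolute difference of centred log2 values over the 23 libraries, the genes most like Vcan were Fstl1 (0.18), Mfap5 (0.18), Lgals1 (0.20) and Fbn1 (0.20), where the median gene stood at 0.39. These genes were picked over sham and infused libraries together. Fold changes near those of Vcan thus follow from the choice and are no separate evidence. Fstl1 rose at both times, by 0.61 and 0.42 on the log2 scale (limma, adjusted p = 0.011 and 0.047). Fbn1, which encodes fibrillin-1 of elastic fibre microfibrils, rose at 7 days by 0.76 (limma, adjusted p = 0.021) and had 0.37 at 14 days (adjusted p = 0.19).

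Aggrecan was the scarcest of the 9 transcripts per kilobase in sham arteries and had the largest fold change at each time. Acan (ENSMUSG00000030607) lies on the plus strand at chr7:79053483-79115099. Sham arteries at 7 days held Acan between 0 and 0.739, with a median of 0.150, which was 0 to 3 reads per library. Infused arteries held between 0.250 and 3.04, with a median of 1.73, or 2 to 53 reads. In 5 of 6 infused libraries Acan lay above every sham library, and replicate 3 was within the sham range. The mean was 0.203 ± 0.274 in sham and 1.71 ± 1.03 in infused arteries (SD, n = 6 each). On log2(value + 0.5), a scale that understates changes of low genes, the difference was 1.56 ± 0.40 (SE; limma, adjusted p = 0.063). It was 1.45 within series 27 and 1.55 within series 28. Leaving out infused replicate 3 or sham replicate 6 brought the adjusted p to 0.018 and 0.035, and a pseudocount of 0.1 brought it to 0.038. These 2 were the only calls in 12 fits without a single library, where it reached 0.18. With a pseudocount of 1 it was 0.11, and with no filter on low values 0.099. At 7 days, too, no sham library reached the value of 1 that the filter asks for.

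At 14 days the sham libraries held Acan between 0 and 0.973, with a median of 0.357, or 0 to 18 reads. The 5 infused libraries held 9.27, 1.68, 1.76, 6.23 and 1.88 in replicates 1 to 5, or 178, 39, 35, 135 and 50 reads. All 5 lay above every sham library, with replicates 1 and 4 well above the other 3. The mean rose from 0.413 ± 0.347 (SD, n = 6) to 4.16 ± 3.45 (n = 5), by 2.13 ± 0.42 on the log2 scale (SE; limma, adjusted p = 0.0055). It was called without each library in turn (1.79 to 2.33), and the difference was 2.15 within series 26. With the series as a block in the fit the adjusted p was 0.096. Acan reached a value of 1 in 10 infused and 0 sham libraries, so it entered the test through the infused groups alone.

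Of 11 cartilage markers, 7 had a median under 0.5 in each group, among them the collagen genes Col2a1 and Col9a1, with highest values of 0.884 and 0.652. Matn1 was at 0 in 22 of 23 libraries and Chad in 12. The summed cartilage markers ran from 15.3 to 25.1 in the sham groups and from 22.4 to 45.5 in the infused groups, and most of that sum came from Sox9, Comp and Col11a2, with medians over the 23 libraries of 11.6, 5.21 and 2.11. Of the 4 cartilage markers tested, limma called 1 at 14 days, where 4.04% of all genes were called higher. This was Comp, a matrix protein of cartilage and tendon, which rose by 1.81 on the log2 scale (limma, adjusted p = 0.0037). Sox9, Col11a2 and Col9a3 had -0.15, 0.09 and 0.09 at 14 days (limma, adjusted p = 0.75, 0.82 and 0.83). The value of Comp was 29.5 in infused replicate 1, which also had the highest Acan, and 7.43 to 10.2 in the other 4.

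The genes most like Acan over the 23 libraries were Ltbp2 (0.43), Ereg (0.54), Timp1 (0.56) and Cep55 (0.57), where the median gene stood at 1.09. The infused libraries were part of that choice, so fold changes near those of Acan follow from it and are no separate evidence. Ltbp2, a latent TGF-beta binding protein of the matrix, rose at 7 days by 1.67 and at 14 days by 2.44 on the log2 scale (limma, adjusted p = 0.013 and 0.00058). Timp1, an inhibitor of matrix metalloproteinases, had 1.44 at 7 days (limma, adjusted p = 0.054) and rose by 1.45 at 14 days (adjusted p = 0.024).

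The hyaluronan synthases did not pass the test at either time. Has1 (ENSMUSG00000003665) lies at chr17:17843323-17855205 and Has2 (ENSMUSG00000022367) at chr15:56665627-56694539, both on the minus strand. Has1 ran from 0.318 to 3.26 in 7-day sham arteries (median 1.26) and from 0.375 to 5.01 in infused ones (median 1.99), or 6 to 96 reads per library. At 14 days it ran from 0.537 to 2.44 in sham (median 1.29) and was 5.73, 1.98, 2.56, 3.41 and 1.84 in infused replicates 1 to 5. Here 3 of 5 infused libraries lay above every sham library. The log2 fold change of Has1 was 0.44 ± 0.41 at 7 days and 1.00 ± 0.43 at 14 days (SE; limma, adjusted p = 0.85 and 0.15), and at 14 days its 95% interval ran from 0.11 to 1.89. Mesothelial cells are known for making hyaluronan. At 14 days 8 mesothelial markers summed to between 166 and 262 in infused arteries and between 214 and 620 in sham. Most of the sum came from the keratins Krt8, Krt18 and Krt19, with 14-day sham means of 113, 109 and 87.7. Msln had a mean of 11.1 there and the other markers less, so the sums mainly read keratins. Of the 8, limma called 0 at 14 days, with 2 at an unadjusted p under 0.05, 0 called by edgeR and 2 by DESeq2. At 7 days Has1 was highest in infused replicate 4 (5.01, mesothelial sum 371). Next were sham replicate 5 (3.26, sum 461) and infused replicate 6 (3.05, sum 594). The value of sham replicate 5 was 10 reads, in the library with the lowest total. The mesothelial sums of these 3 libraries were among the 4 highest of the 23 libraries. At 14 days the highest Has1 and the highest sum fell in different libraries. The highest Has1 of all 23 libraries, 5.73 in infused 14-day replicate 1, came with a mesothelial sum of 214. The highest sum, 620 in sham 14-day replicate 4, came with less Has1 than in every infused 14-day library. The part of mesothelial cells in the Has1 level was not tested. Within series the log2 difference of Has1 was 0.49 (27) and -0.068 (28) at 7 days and 0.90 (26) at 14 days.

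Has2, the synthase most often studied in vascular smooth muscle, overlapped between groups at both times. It ran from 1.79 to 5.58 in 7-day sham arteries (median 5.03) and from 1.84 to 9.70 in infused ones (median 3.67), with replicate 4 the high library. At 14 days it ran from 2.49 to 5.42 in sham (median 4.57) and was 3.96, 2.88, 2.11, 2.91 and 3.90 in infused replicates 1 to 5. The log2 fold change of Has2 was -0.12 ± 0.29 at 7 days and -0.38 ± 0.31 at 14 days (SE; limma, adjusted p = 0.96 and 0.47). The 95% intervals ran from -0.73 to 0.49 and from -1.01 to 0.26, so changes within these ranges were not excluded. At 7 days edgeR and DESeq2 on the recovered reads gave the opposite sign, 0.066 and 0.036. Within series the differences were -0.066 (27), -0.35 (28) and, at 14 days, -0.44 (26).

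Cd44 (ENSMUSG00000005087; minus strand, chr2:102811141-102901665) varied between libraries more than between groups. It ran from 39.2 to 97.4 in 7-day sham arteries (median 49.9) and from 37.9 to 119 in infused ones (median 60.4). At 14 days it ran from 41.0 to 97.5 in sham (median 42.9) and was 80.5, 49.0, 55.6, 49.9 and 55.8 in infused replicates 1 to 5. The groups overlapped at both times. Cd44 had log2 fold changes of 0.23 ± 0.26 and 0.22 ± 0.27 (SE; limma, adjusted p = 0.88 and 0.64). Within series they were 0.37 (27) and -0.083 (28) at 7 days and 0.19 (26) at 14 days.

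The 3 highest Cd44 values were 119 in infused 7-day replicate 6, 97.5 in sham 14-day replicate 4 and 97.4 in sham 7-day replicate 5. The same 3 libraries had the highest sums of mesothelial markers, at 594, 620 and 461. These sums came mostly from keratins, so they do not single out mesothelial cells. The markers other than keratins were not read separately by library. The next Cd44 value, 80.5 in infused 14-day replicate 1, came with a mesothelial sum of 214 and with the highest sum of macrophage and monocyte markers, 1278. Without the 3 libraries, an alternative chosen after their values were seen, the log2 fold change of Cd44 was 0.22 at 7 days and 0.42 at 14 days (limma, adjusted p = 0.79 and 0.11). The part of these cell types in the level of Cd44 was not tested.

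**Figure D3:**
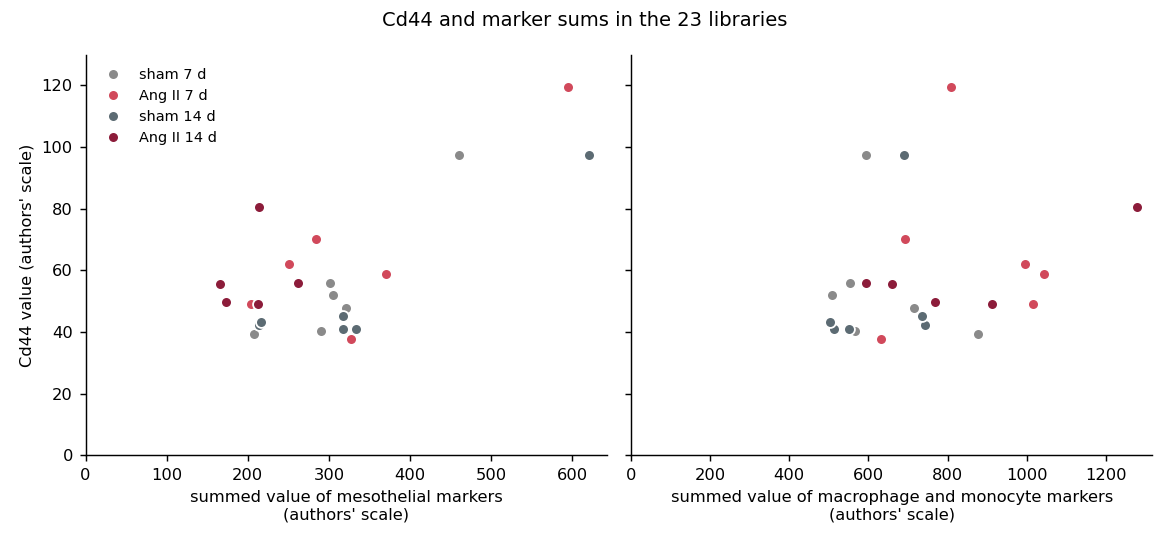
Value of Cd44 (vertical axis, authors' scale) against the summed value of 8 mesothelial markers (left) and of 11 macrophage and monocyte markers (right) in the 23 libraries, coloured by group. The mesothelial sums came mostly from the keratins Krt8, Krt18 and Krt19. The 3 libraries with the highest mesothelial sums, 461 to 620, had Cd44 of 97.4 to 119, and the library with the highest macrophage sum, 1278, had Cd44 of 80.5.

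Xylt1 (ENSMUSG00000030657; plus strand, chr7:117380979-117673580), which starts the chains, did not pass the test. It ran from 3.16 to 5.21 in 7-day sham (median 3.97) and from 4.67 to 5.99 in infused arteries (median 5.90), and 4 of 6 infused libraries lay above every sham library. At 14 days the range was 2.90 to 5.33 in sham, and infused replicates 1 to 5 held 4.01, 3.09, 6.93, 4.52 and 5.67, with 2 of 5 above every sham library. The log2 fold change of Xylt1 was 0.42 ± 0.17 at 7 days and 0.22 ± 0.18 at 14 days (SE; limma, adjusted p = 0.40 and 0.46). Within series it was 0.55 (27) and 0.14 (28) at 7 days and 0.033 (26) at 14 days.

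Sulf1 had the smallest spread and, at 14 days, the smallest adjusted p of the 9 genes. Sulf1 (ENSMUSG00000016918) lies on the plus strand at chr1:12692277-12861192. Sham arteries at 7 days held Sulf1 between 95.3 and 124, with a median of 116, and infused arteries between 119.6 and 151, with a median of 143. In 5 of 6 infused libraries Sulf1 lay above every sham library, and replicate 4 at 119.6 did not. The means were 114 ± 9.97 and 139.9 ± 11.8 (SD, n = 6 each), which gave 0.29 ± 0.08 on the log2 scale (SE; limma, adjusted p = 0.084). The difference was 0.32 within series 27 and 0.23 within series 28. DESeq2 on the recovered reads called Sulf1 at 7 days (0.28, adjusted p = 0.034), as did limma without infused replicate 4 (0.33, adjusted p = 0.042).

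At 14 days Sulf1 ran from 100.3 to 123 in sham, with a median of 115, and was 176, 173, 172, 198 and 208 in infused replicates 1 to 5. Every infused library lay above every sham library. The sham mean was 114 ± 8.03 (SD, n = 6) and the infused mean 185 ± 16.7 (n = 5), a rise of 0.69 ± 0.08 on the log2 scale (SE; limma, adjusted p = 7.2e-05). Leaving out each library in turn gave 0.65 to 0.72, all called, and the difference was 0.61 within series 26. With the series as a block Sulf1 was still called (adjusted p = 0.024). The 2 highest libraries, at 198 and 208, were those of series 30.

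Between the infused groups, every 14-day library held more Sulf1 than any 7-day library, as 2.10% of all genes did. The infused groups shared no series of animal numbers, so time and series cannot be told apart here. The sham means were both 114. The test of the difference between the responses gave 0.40 ± 0.11 (SE; limma, unadjusted p = 0.0014, adjusted p = 0.46). Thus the larger Sulf1 response at 14 days did not pass over all genes.

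The genes most like Sulf1 over the 23 libraries were Fzd1 (0.11), Stk38l (0.11), Serpine2 (0.12) and Wipf1 (0.12), where the median gene stood at 0.34. The infused libraries were part of that choice, so fold changes near those of Sulf1 follow from it and are no separate evidence. Fzd1, a Wnt receptor, had a log2 fold change of 0.13 at 7 days (limma, adjusted p = 0.81) and rose by 0.70 at 14 days (adjusted p = 0.00081). Serpine2, a protease inhibitor that binds heparan sulfate, had 0.40 at 7 days (limma, adjusted p = 0.090) and rose by 0.81 at 14 days (adjusted p = 0.00044).

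Sulf2 (ENSMUSG00000006800; minus strand, chr2:166073089-166155663), the sulfatase with the same activity, had positive fold changes that did not pass the test. Sulf2 ran from 62.6 to 105 in 7-day sham arteries (median 93.4) and from 95.4 to 121 in infused ones (median 116), with 5 of 6 infused libraries above every sham library. At 14 days it ran from 64.1 to 104 in sham (median 85.7) and was 121, 77.2, 145, 117 and 121 in infused replicates 1 to 5. Replicate 2 lay inside the sham range and the other 4 above it. The log2 fold change of Sulf2 was 0.34 ± 0.14 at 7 days and 0.44 ± 0.14 at 14 days (SE; limma, adjusted p = 0.38 and 0.065). Within series it was 0.42 (27) and 0.15 (28) at 7 days and 0.39 (26) at 14 days. Sulf2 was called at 14 days by edgeR (adjusted p = 0.044), by DESeq2 (0.032), after scaling without acinar genes and AY036118 (0.018), without infused replicate 2 (0.0062) and without sham replicate 1 (0.042).

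Gxylt2 (ENSMUSG00000030074; plus strand, chr6:100704734-100810913), the xylosyltransferase of EGF repeats, rose at both times. Sham arteries at 7 days held Gxylt2 between 4.73 and 7.88, with a median of 5.29, and infused arteries between 10.4 and 15.2, with a median of 13.03. No sham library reached the infused range. Means were 5.70 ± 1.20 in sham and 12.7 ± 1.98 with Ang II (SD, n = 6 each), a rise of 1.10 ± 0.16 on the log2 scale (SE; limma, adjusted p = 0.00059). The rise was 1.16 within series 27 and 0.94 within series 28.

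At 14 days Gxylt2 ran from 3.83 to 7.75 in sham, with a median of 7.61, and was 14.5, 12.5, 14.96, 19.1 and 19.9 in infused replicates 1 to 5. All 5 infused libraries again lay above every sham library. The sham mean was 7.01 ± 1.56 (SD, n = 6) and the infused mean 16.2 ± 3.18 (n = 5), a rise of 1.16 ± 0.17 on the log2 scale (SE; limma, adjusted p = 0.00057). Within series 26 the difference was 1.05, and the 2 highest values, 19.1 and 19.9, were those of series 30. Gxylt2 was called at both times without each library in turn and with the series as a block. The responses at 7 and 14 days differed by 0.06 ± 0.23 (SE; limma, adjusted p = 0.94), with a 95% interval from -0.42 to 0.54.

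**Figure D4:**
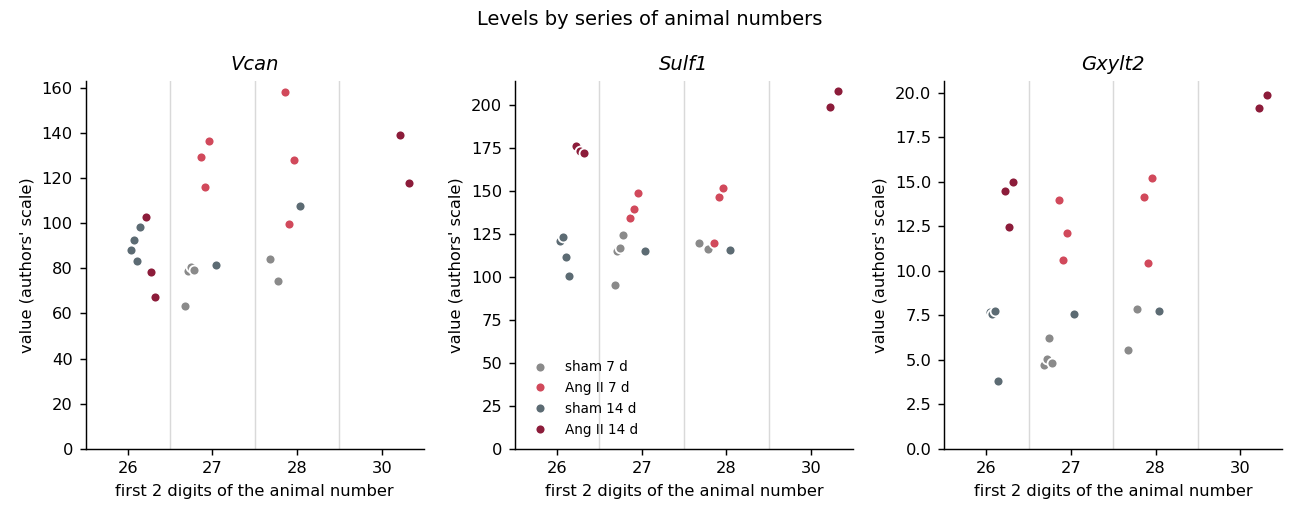
Value of Vcan, Sulf1 and Gxylt2 on the authors' scale (vertical axes) by the first 2 digits of the animal number (horizontal axis), 1 point per library, coloured by group. Among 14-day infused arteries the Vcan values of series 26, 67.3 to 103, spanned the sham values beside them, while Sulf1 (172 to 176) and Gxylt2 (12.5 to 14.96) of that series lay above them.

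Between the responses at 7 and 14 days, 0 of 9 genes differed by limma at an adjusted p under 0.05, as did 0.00% of all genes. Vcan and Sulf1 were the 2 of 9 with an unadjusted p under 0.05, as were 1396 of all genes. Called by edgeR and by DESeq2 on the recovered reads were 0 of 9 as well. Between the sham groups of 14 and 7 days, limma called 0 of 9, beside 0.00% of all genes, and 0 of 9 had an unadjusted p under 0.05, with 0 called by edgeR and 0 by DESeq2. Both tests use libraries of the main comparisons again.

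The rest of the pathway was read from 8 lists with 96 genes besides the 9, of which 82 were tested. At 7 days 1 of 82 was called, higher, where 0.819% of all genes were called in either direction. This was Hmmr, a hyaluronan-binding protein also known from the spindle of dividing cells, with 1.24 ± 0.25 on the log2 scale (SE; limma, adjusted p = 0.013). Hmmr lost the call without infused replicate 6 (adjusted p = 0.051). At 14 days 14 of 82 were higher and 1 lower, 18.3% beside 6.06% of all genes. The median log2 fold change of the 82 was 0.10 at 7 days and 0.18 at 14 days, beside 0.00 and 0.03 over all genes.

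That count at 14 days depended on single libraries. It ran from 4 without infused replicate 4 to 25 without infused replicate 2, and it was 6 without infused replicate 3 or 5, 7 without sham replicate 3 or 4, 8 without sham replicate 6 and 9 without sham replicate 2. It was 3 without the libraries of series 30 and 0 with the series as a block. Calls over all 14896 genes moved as well, from 602 higher and 300 lower in the main fit. They were 283 and 116 without infused replicate 4, and 1410 and 783 without infused replicate 2. They were 83 and 15 without series 30, and 14 and 2 with the block. Chsy1, Ust, Gpc6 and Sdc3 were called without each library in turn, and the other 11 were not.

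In the list of chondroitin and dermatan sulfate synthesis, 5 of 15 tested genes were called at 14 days, all higher, beside 4.04% of all genes. Their median log2 fold change was 0.34. Chsy1, a synthase that lengthens the chondroitin chain, rose from 30.4 ± 0.979 (SD, n = 6) to 44.1 ± 6.19 (n = 5), by 0.52 ± 0.09 on the log2 scale (SE; limma, adjusted p = 0.0019). Ust, which sulfates the uronic acids of the chain, rose by 0.45 (adjusted p = 0.012). The chain-lengthening Chsy3 and Chpf rose by 0.89 and 0.73 (adjusted p = 0.039 and 0.035), and the dermatan sulfotransferase Chst14 by 0.52 (adjusted p = 0.019). At 7 days limma called 0 of the 15, with 5 at an unadjusted p under 0.05, 0 called by edgeR and 2 by DESeq2. In the linker list, which holds Xylt1, limma called 0 of 7 at each time, with 1 at an unadjusted p under 0.05 and 0 called by edgeR or DESeq2.

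Of 13 tested heparan sulfate core proteins, 4 rose and 1 fell at 14 days, beside 6.06% of all genes called in either direction, and 8 were not called. Gpc6, a glypican anchored in the cell membrane, rose from 41.0 ± 4.19 (SD, n = 6) to 67.5 ± 14.3 (n = 5), by 0.69 ± 0.12 on the log2 scale (SE; limma, adjusted p = 0.0016). Sdc3, a syndecan, rose by 0.84 (adjusted p = 0.0045). The basement membrane proteoglycans Hspg2, or perlecan, and Col18a1 rose by 0.86 and 0.91 (adjusted p = 0.046 and 0.024), and the syndecan Sdc4 fell by 0.40 (adjusted p = 0.024). After scaling without acinar genes and AY036118 Sdc4 had -0.28 and an adjusted p of 0.082. In the list of heparan sulfate synthesis and editing, 2 of 19 were called at 14 days: Sulf1 and the 2-O-sulfotransferase Hs2st1, which rose by 0.35 (adjusted p = 0.033).

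The remaining lists held 1 further called gene each at 14 days, where 4.04% of all genes were called higher. Of 11 fits without a single library, Cspg4, Tmem2 and Kdelc2 were called in 3 each and Adamts8 in 5. Cspg4, a transmembrane chondroitin sulfate proteoglycan of mural cells, rose by 0.93 (limma, adjusted p = 0.041). Tmem2, known as a cell-surface protein that cuts hyaluronan, rose by 0.46 (adjusted p = 0.043), and was 1 of 14 tested hyaluronan genes. Adamts8, a protease of the family that cuts versican and aggrecan, rose by 0.78 (adjusted p = 0.033), and was 1 of 7. A single called gene of 14 or of 7 does not set a list apart from the share over all genes. Kdelc2, listed with Gxylt2 among genes for O-linked sugars on EGF repeats, rose by 0.36 (adjusted p = 0.046). Poglut1 of the same list had 0.0047 at 7 days and 0.088 at 14 days (limma, adjusted p = 0.99 and 0.51). Gxylt1, the paralog of Gxylt2, had -0.04 at 7 days and 0.15 at 14 days (limma, adjusted p = 0.94 and 0.32).

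**Figure D5:**
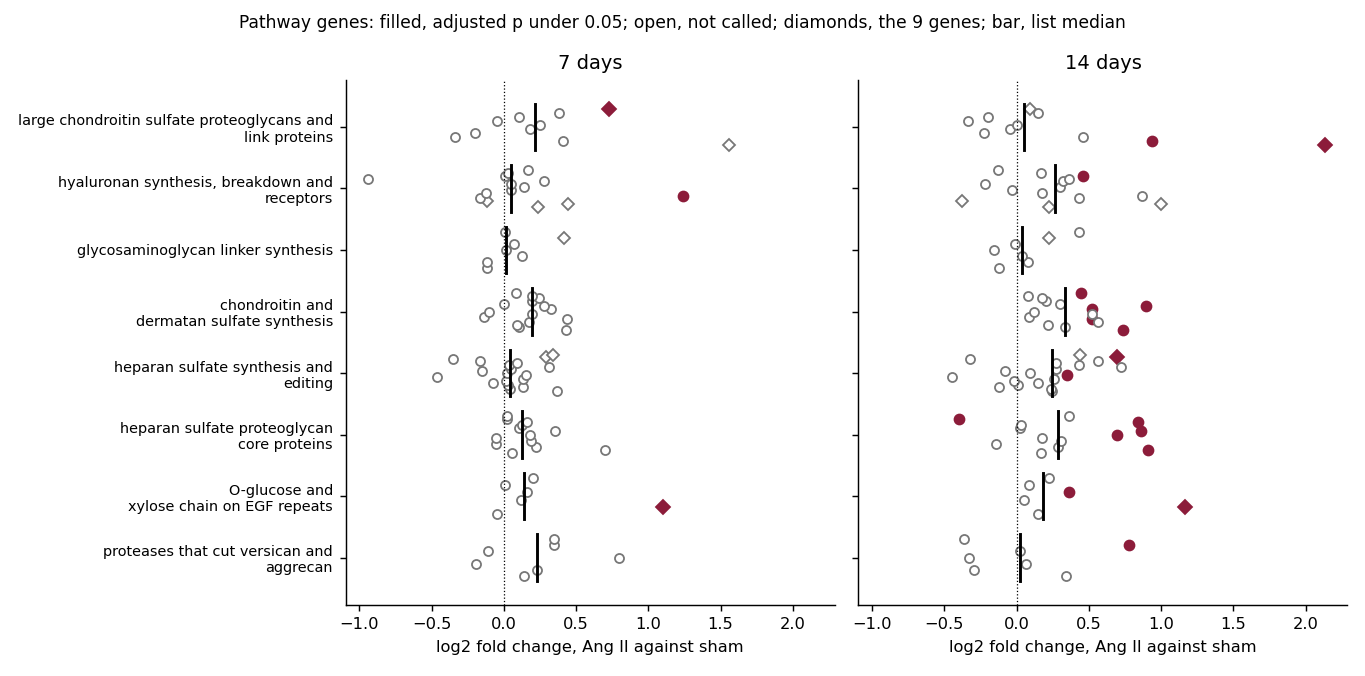
Log2 fold change (horizontal axes, Ang II against sham) of each tested gene in the 8 pathway lists at 7 and 14 days, filled where the limma adjusted p was under 0.05, with diamonds for the 9 genes and a bar at each list's median. Outside the 9 genes, 1 filled point is seen at 7 days and 15 at 14 days, of which 1 lies below 0.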

How the data were processed

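Total RNA of 23 mesenteric artery libraries was analysed from 1 table of normalized signal per gene and library that the authors deposited. HTSeq 0.5.3p3, STAR 2.3.1, edgeR 3.6.8, R 3.2.3, FastQC and bcl2fastq 1.8.4, with build mm10, are named per the submitters' processing notes; 500 ng RNA entered a stranded kit per the labels' protocols. For the annotation, the strand setting and the way of normalizing, the sources used here give nothing, so genes with exons on the opposite strand are uncertain.

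All 460324 deposited signal values above 0 were whole multiples of the smallest value of their library (100% within 0.001 read), so whole reads were recovered by taking that value as 1 read. On this basis libraries held 4471038 to 21509283 reads, and an interval from read counts would cover counting error only. Replicates are numbered in accession order, and no 2 libraries held identical values.

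limma 3.58.1 in R 4.3.3 (trend, robust) was run on log2(value + 0.5) for the 14896 genes with a value of at least 1 in at least 5 libraries, 4 group means in 1 fit. p-values were adjusted by Benjamini-Hochberg over all genes within each contrast, and called means an adjusted p under 0.05. All 9 genes passed this filter. In the alternatives the pseudocount, filter, scaling, samples and series block were changed, and edgeR 4.0.16 and DESeq2 1.42.0 were run on the recovered reads. Exon lengths and overlaps come from GENCODE M21 on GRCm38.

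The genes followed and the lists were chosen with earlier results of these data known. All 9 genes are named, as are the called genes of each pathway list and, for Vcan, Sulf1 and Acan, the 4 genes with the smallest mean absolute difference of centred log2 values. Comp was named after its values were seen. Each library has its own animal number, so p-values measure the spread between these animals.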

Additional observations from a re-analysis of the deposited data

Results flagged for a closer look

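Of 36 sets of values (9 genes in 4 groups), 7 had a library far from the others of its group by Dixon's test at 95%, where chance gives about 1 in 20. Cd44 had 3 of them, at 97.4 in sham 7-day replicate 5, 97.5 in sham 14-day replicate 4 and 80.5 in infused 14-day replicate 1. Acan was 0.739 in sham 7-day replicate 6, which was 3 reads. Sulf1 was low at 95.3 in sham 7-day replicate 1, Sulf2 was low at 95.4 in infused 7-day replicate 3, and Gxylt2 was low at 3.83 in sham 14-day replicate 4, where the other 5 lay between 7.55 and 7.75. Sham 14-day replicate 4 was thus apart for both Cd44 and Gxylt2. Its sum of mesothelial markers, mostly keratins, was the highest of the 23 libraries at 620.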

How the results depend on the processing

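No paired analysis was possible because the labels give animal numbers that they do not pair across groups, and no replicate numbers. A block for the series of animal numbers was fitted instead. Counts of the 9 genes called moved by over 1.5 times in 1 case, to 4 with DESeq2 at 7 days. Counts of other pathway genes called at 7 days became 3 with DESeq2 and 0 with only the groups compared in the fit, and 0 to 3 without single libraries. At 14 days they became 7 with no filter, 29 after scaling without AY036118 and acinar genes, 7 with only the groups compared, 0 with the series block, 6 without the 3 libraries highest in mesothelial markers, 3 without series 30, and 4 to 25 without single libraries. Of all genes at 14 days 602 were called higher and 300 lower, which became 1979 and 208 after that scaling, 424 and 368 with upper-quartile scaling, 1029 and 766 with DESeq2, 410 and 163 with no filter, 258 and 85 with only the groups compared, 309 and 127 without the 3 libraries, 83 and 15 without series 30, and 14 and 2 with the block. Without infused replicate 4 the 14-day calls over all genes were 283 and 116, and without infused replicate 2 they were 1410 and 783. At 7 days 112 and 10 became 173 and 39 with DESeq2 and 57 and 5 without the 3 libraries. The leave-outs of the 3 libraries and of series 30 were chosen after seeing the data. Fold changes that turned sign belonged to genes not called. At 7 days Has2 had 0.066 (edgeR) and 0.036 (DESeq2), and within series 28 Has1 had -0.068 and Cd44 -0.083. At 14 days Vcan had -0.15 with the block and within series 26, and -0.16 without series 30. In the difference of the responses Cd44 had 0.10 (scaling), 0.0072 (block), 0.20 (without the 3 libraries) and 0.066 (without series 30), and Gxylt2 had -0.0094 (DESeq2), -0.018 (block), -0.033 and -0.12 in the same order. Between the sham groups Has2 had -0.0023 (pseudocount 1), -0.0040 (DESeq2), -0.0097 (scaling) and -0.040 (block), Sulf1 -0.013 (scaling), Xylt1 0.0072 (edgeR) and 0.027 (DESeq2), and Has1 0.13 without the 3 libraries. Without single libraries the signs also turned for Vcan at 14 days (-0.031 to 0.23), Has2 at 7 days (-0.37 to 0.056), the difference of Cd44 (-0.19 to 0.19) and Gxylt2 (-0.089 to 0.15), and between sham groups for Cd44 (-0.30 to 0.069), Has1 (-0.26 to 0.18), Has2 (-0.20 to 0.13), Sulf1 (-0.051 to 0.038) and Xylt1 (-0.11 to 0.044). The cause was not tested. Depth limits Acan and Has1 most, with 0 to 18 and 6 to 20 reads per sham library.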
